A study of Mus musculus with 32 samples.

Results

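The melanocyte lineage and neural crest genes described here are 10 genes chosen by name: the transcription factors Mitf, Sox10 and Sox9, the pigment cell genes Pmel, Mlana, Tyr, Tyrp1 and Dct, and the receptors Ednrb and Ngfr. Their Ensembl identifiers were looked up in the deposited count table of 12451 genes, and 9 of the 10 had a row. Ngfr, the p75 neurotrophin receptor that marks neural crest cells, had no row in the table used here and was not analysed here. The cells were YUMM3.3, a mouse melanoma line with mutant Braf and no Cdkn2a, and mRNA was measured by BRB-seq, in which every well is tagged with its own barcode before pooling and only the 3′ end of an mRNA is read. The comparisons ask which transcripts respond to either factor, and whether the response to one depends on the other, in pure cultures of the line. Untreated cells, cells with 40 ng/ml Activin-A (the dose in the labels and methods, from which a figure legend of the study differs), cells with 20 ng/ml IFN-γ and cells with both factors at these doses were each sampled at 4 hrs and at 12 hrs, with 4 wells in each of the 8 groups and 32 wells in all. All groups share the same line and culture medium, and the source does not say whether the wells of a group came from separate cultures, so that p-values measure the spread between these wells. Each RNA sample is a whole well, in which fewer cells of a type and less RNA per cell cannot be told apart.

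Melanocytes arise from the neural crest, where Sox10 and Sox9 are active and where Sox10 switches on Mitf, the master transcription factor of the pigment cell lineage. Mitf binds short E-box motifs in the promoters of Tyr, Tyrp1, Dct, Pmel and Mlana, whose products build melanosomes and make melanin. In melanoma the lineage program is plastic: signals of the TGF-β family and inflammatory cytokines have been linked to loss of MITF and pigment genes, and cells with little MITF often carry AXL or neural crest receptors such as NGFR.

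Total counts ranged from 654539 to 1455074 per well, with a median of 988019.5. Levels are CPM, counts relative to a library size that was scaled by edgeR's TMM method, given as mean ± SD (n = 4). The floor used is 3 counts, which amounts to 2.06 CPM in the deepest well and 4.58 CPM in the shallowest and accounts for counting error alone. All 48 pairs of wells within a group showed more spread than counting gives (chi-squared per gene 1.16 to 2.89). Replicate 1 of Activin-A at 4 hrs stood apart, since its 3 pairs were at 2.45 to 2.89 and no other pair was above 1.54. Fold changes of single genes within 4 hrs that use it are also given without it. Effects at 12 hrs minus those at 4 hrs are given with all wells only. Both factors acted on the cells: Ccn2, a Smad target, rose with Activin-A from 78.4 ± 12.7 to 266 ± 30.3 CPM at 4 hrs (log2 fold change 1.77, SE 0.11, edgeR adjusted p = 2.59e-19, and 1.68 without replicate 1), and Irf1, a direct target of IFN-γ signaling, rose with IFN-γ from 42.3 ± 1.51 to 783 ± 19.2 CPM (log2 fold change 4.22, SE 0.11, edgeR adjusted p = 3.22e-42). Of 10 melanocyte markers 9 had a row, with Kit as the exception, and their summed level lay between 380 ± 26.2 CPM and 420 ± 9.96 CPM in the 8 groups. None of 4 endothelial markers and 1 of 8 keratinocyte markers (Krt10) had a row. Of 7 leukocyte markers 3 had one, with sums of 14.5 to 20.2 CPM in the groups. Of 5 Schwann cell markers 4 had one, with sums of 10.4 to 15.2 CPM. Of 8 fibroblast markers 6 had one, and their sum, most of it from Col3a1, moved with IFN-γ: at 12 hrs it was 290 ± 18.8 CPM untreated, 337 ± 25.3 CPM with Activin-A, 175 ± 18.7 CPM with IFN-γ and 188 ± 4.62 CPM with both factors. Between 4 hrs and 12 hrs its wells did not overlap under any treatment. Untreated wells were at 225 to 265 and then 269 to 313 CPM, and Activin-A wells at 249 to 296 and then 308 to 361 CPM. Wells with IFN-γ were at 210 to 254 and then 153 to 198 CPM, and wells with both at 207 to 240 and then 181 to 190 CPM. Both factors and Activin-A alone did not overlap at 4 hrs either. The part of this sum was not tested in any comparison, the gene lists included.

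Pmel, Mlana, Tyr, Tyrp1, Dct, Sox9 and Sox10 were above the floor of 3 counts in every well, and the abundant pigment genes differed little in mean level between treatments. The pigment genes Pmel, Tyrp1, Dct and Mlana had between 31 and 169 counts in each of the 32 wells, Sox9 had 77 to 228, Sox10 had 8 to 30 and Tyr had 6 to 21. Mitf was low, at 2 to 13 counts, and Ednrb was at or under 3 counts in 25 of the 32 wells. After edgeR's filterByExpr took out rows of low count, 8 of the 9 genes could be tested at 4 hrs (all but Ednrb) and 7 at 12 hrs (all but Ednrb and Mitf). Over the 14 pairwise comparisons this gave 107 tests of single genes with edgeR's quasi-likelihood test. The wells of the groups compared did not overlap in 4 of these tests, and the share over all genes was not counted. With p-values adjusted over all genes tested by the Benjamini-Hochberg method, 1 test passed an adjusted p of 0.05: Sox9 was lower with both factors than with Activin-A alone at 12 hrs, where 9.62% of all genes tested were called (3.44% lower). For each gene, wells of neighbouring groups overlapped in all 7 neighbouring pairs when the 8 groups were ordered by mean level.

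**Figure D1:**
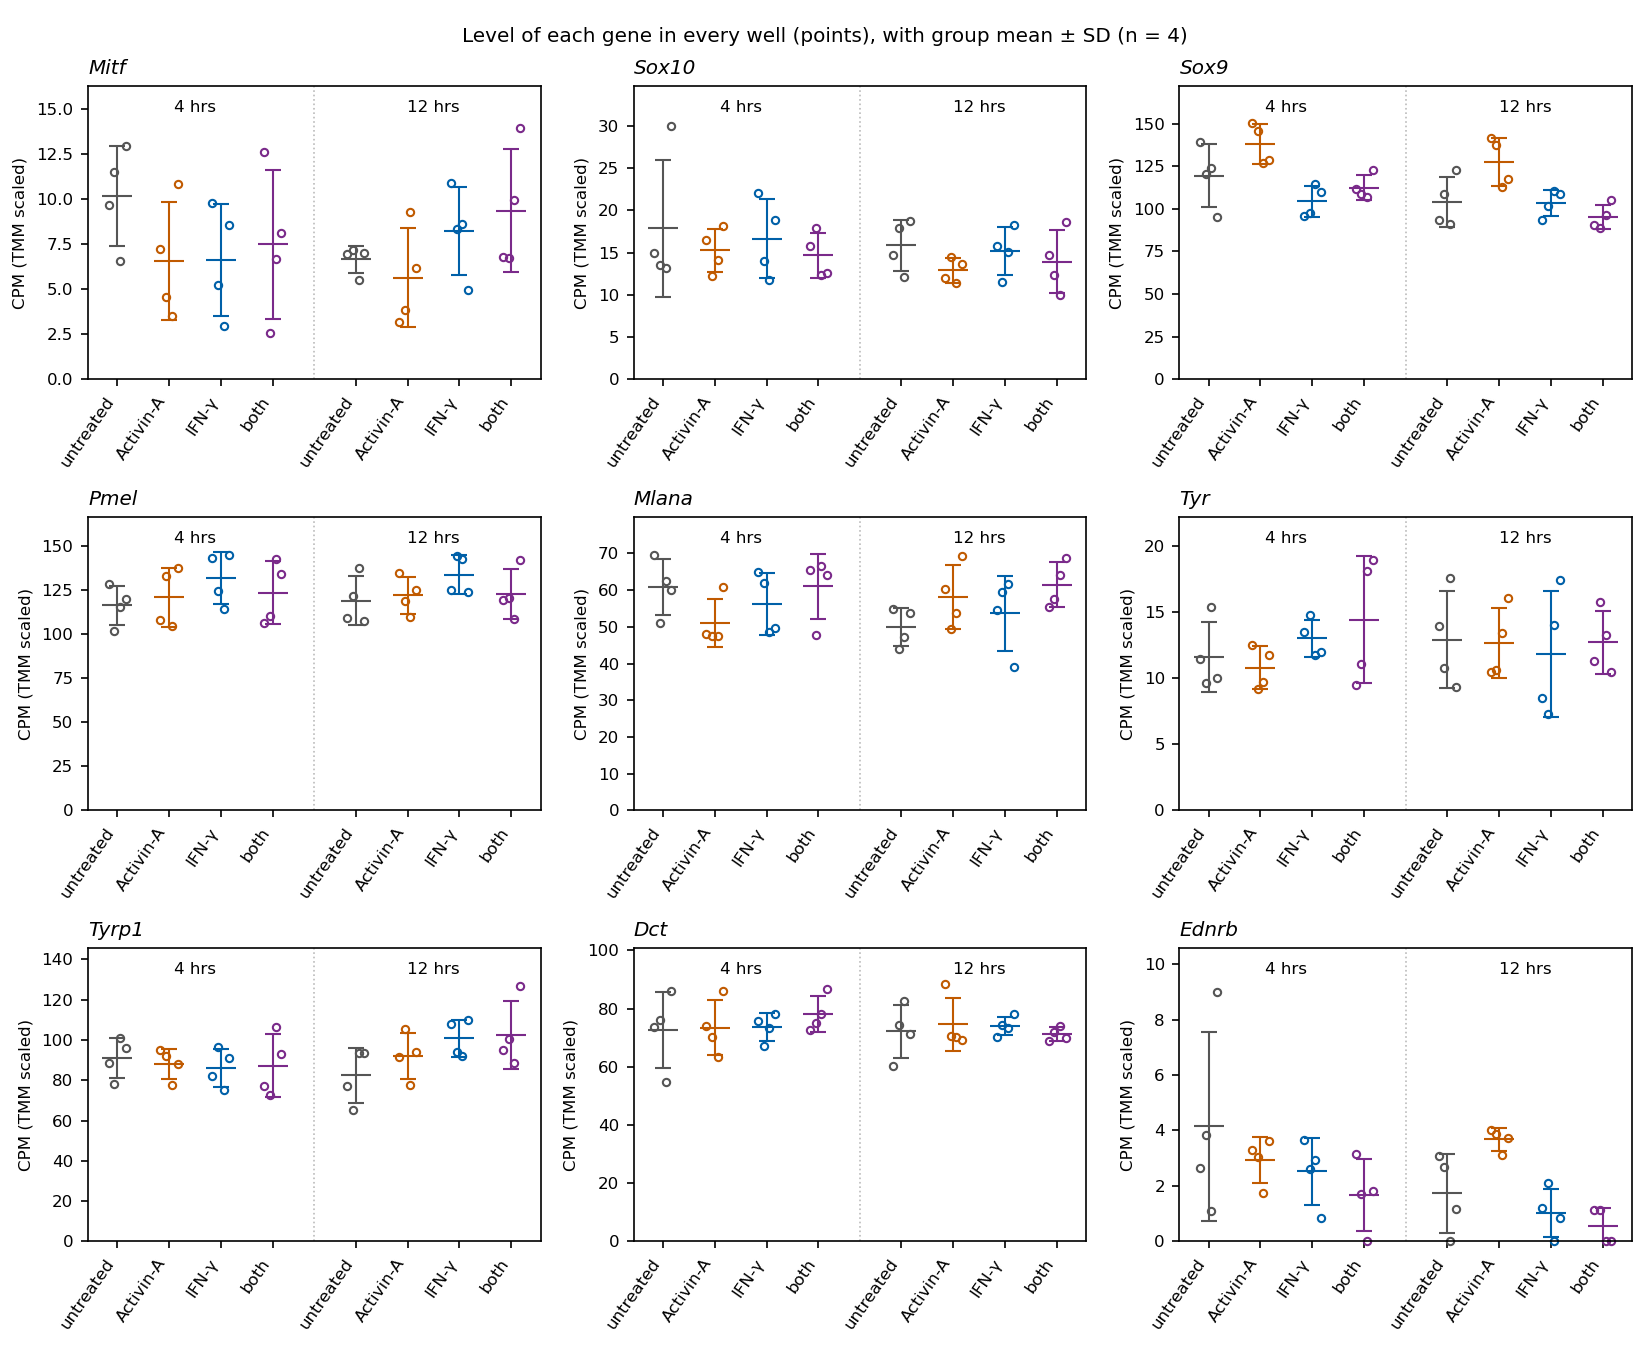
Level of each gene in CPM (y axis, TMM scaled, starting at 0) in the 8 groups (x axis, 4 hrs left and 12 hrs right of the dotted line). Points are wells, and bars are the mean ± SD of 4 wells. Sox9 is highest in the Activin-A groups at both times, with 113 to 141 CPM at 12 hrs against 89.0 to 105 CPM with both factors, and the other panels show groups that mostly overlap.

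In the remaining comparisons edgeR called 0 of the genes. At 4 hrs 0 of 8 were called with Activin-A against untreated cells (1.64% of all genes tested), IFN-γ against untreated cells (5.06%), both factors against untreated cells (7.29%), both against IFN-γ (0.810%), both against Activin-A (6.07%) and the interaction of the factors (0.00%). At an unadjusted p of 0.05 the count was 1, Sox9, for both factors against Activin-A, and 0 in the other 5. At 12 hrs 0 of 7 were called with Activin-A (2.41%), IFN-γ (9.25%) or both factors (9.84%) against untreated cells, both against IFN-γ (1.03%) and the interaction (0.0111%). The unadjusted count was 1 with each of Activin-A (Sox9), IFN-γ (Tyrp1), both factors (Tyrp1) and the interaction (Sox9), and 0 for both against IFN-γ. For 12 hrs against 4 hrs 0 of 8 were called in untreated cells (4.90%) and with Activin-A (6.97%), IFN-γ (8.41%) or both factors (7.10%), and the unadjusted count was 1 (Sox9) in untreated cells and with both factors and 0 in the other 2. The plates named in the methods were too small to hold all the wells. The sources used here do not say how wells of different times or treatments were placed on them, so that differences between plates could not be accounted for. DESeq2 also called 0 in each of these comparisons. A p that misses the threshold does not show equal levels, and the intervals give the limit: with Activin-A at 12 hrs, for example, the 95% intervals of all 7 genes lay within a 2-fold change in either direction, and at 4 hrs those of 7 of 8 did, Mitf being the exception. Whether the effect of a treatment differed between the times was also tested: edgeR called 0 of 8 genes for Activin-A (0.0214% of all genes tested), for IFN-γ (0.579%) and for both factors (0.900%), with 1 gene at an unadjusted p under the threshold in each, Mlana for Activin-A and Tyrp1 for the other 2.

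Sox9 is an HMG-box transcription factor of the neural crest and of cartilage, and in pigment cells it can act beside Sox10. Its gene (ENSMUSG00000000567) lies at chr11:112782224-112787760 on the plus strand of GRCm38. At 12 hrs the 4 wells with Activin-A were at 141, 137, 113 and 118 CPM and the 4 wells with both factors at 90.4, 89.0, 96.3 and 105 CPM. The groups did not overlap, and each well with Activin-A was above every well with both factors. Their means were 127 ± 14.2 CPM and 95.1 ± 7.21 CPM, a log2 fold change of -0.43 (SE 0.11, 95% interval -0.65 to -0.21, edgeR adjusted p = 0.00291). Sox9 was thus at 0.741 times its level with Activin-A alone, with an interval of 0.637 to 0.863. It was the 1 of 7 tested genes called in this comparison. The adjusted p was 0.00133 to 0.0382 when each of the 8 wells was left out in turn and 0.00256 to 0.0281 over 8 other settings, the highest with DESeq2's Wald test. Fibroblast markers moved with this comparison: the summed level of the 6 with a row was 188 ± 4.62 CPM (181 to 190) with both factors and 337 ± 25.3 CPM (308 to 361) with Activin-A, while Lum and Thy1 had no row and Dcn had 0 to 8 counts. Their part in the result was not tested.

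The log2 fold changes of Sox9 in the other pairwise comparisons lay between -0.29 and 0.31, and none passed the threshold with all wells. At 4 hrs the wells with both factors were at 112, 108, 107 and 123 CPM. Those with Activin-A were at 150, 145, 127 and 129 CPM, without overlap, and the share of all genes without overlap was not counted. The log2 fold change was -0.29 (SE 0.10, 95% interval -0.50 to -0.08) and the adjusted p of 0.0948 missed the threshold. Without the Activin-A well that stood apart, replicate 1, the values were -0.23 and 0.319. The summed fibroblast markers did not overlap between these groups either, at 207 to 240 CPM with both factors and 249 to 296 CPM with Activin-A, and their part was not tested. Untreated wells at 12 hrs were at 93.5, 108, 91.4 and 123 CPM, so that the highest of them lay within the range of the Activin-A wells. Activin-A alone against untreated cells gave a log2 fold change of 0.31 (SE 0.10, 95% interval 0.10 to 0.52, adjusted p = 0.0997) at 12 hrs, and this passed the threshold when replicate 4 of the untreated wells, the highest, was left out (0.39). At 4 hrs the same comparison gave 0.21 (SE 0.10, adjusted p = 0.452), and 0.14 without replicate 1 of Activin-A. With IFN-γ alone Sox9 was at 104 ± 9.27 CPM at 4 hrs (log2 fold change against untreated cells -0.19, adjusted p = 0.477) and at 103 ± 7.76 CPM at 12 hrs (0.01, adjusted p = 0.986, a direction that turned with DESeq2). Comparisons at 1 time share their control wells.

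The interaction, which is the effect of Activin-A under IFN-γ minus its effect without IFN-γ, was -0.44 for Sox9 at 12 hrs (SE 0.16, 95% interval -0.75 to -0.13). Its unadjusted p was 0.00556 and its adjusted p 0.454, in a test that called 1 of 8971 genes. At 4 hrs the interaction of Sox9 was -0.10 (SE 0.15, adjusted p = 0.983), and -0.02 without replicate 1 of Activin-A. Between the times Sox9 gave a log2 fold change of -0.24 with both factors (SE 0.11, adjusted p = 0.209, wells not overlapping) and -0.21 in untreated cells (SE 0.11, adjusted p = 0.282, wells overlapping). The summed fibroblast markers did not overlap between the times in these comparisons, and their part was not tested. Ordered by mean, Sox9 was at 138 ± 11.8 CPM with Activin-A at 4 hrs, then 127 with Activin-A at 12 hrs, 120 untreated at 4 hrs, 112 with both at 4 hrs, 104 in each of IFN-γ at 4 hrs and untreated cells at 12 hrs, 103 with IFN-γ at 12 hrs and 95.1 with both at 12 hrs. Over the 32 wells, the 3 genes whose log2 CPM was most like that of Sox9 were Cplx2 (Pearson's r = 0.73), Rab6a (0.72) and the Notch ligand Jag1 (0.71), and the 3 most opposite were Vcam1 (-0.71), Sqor (-0.71) and Ptpn13 (-0.70), out of 9331 genes. These wells share a pool and the treatments, and the correlations are a description.

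**Figure D2:**
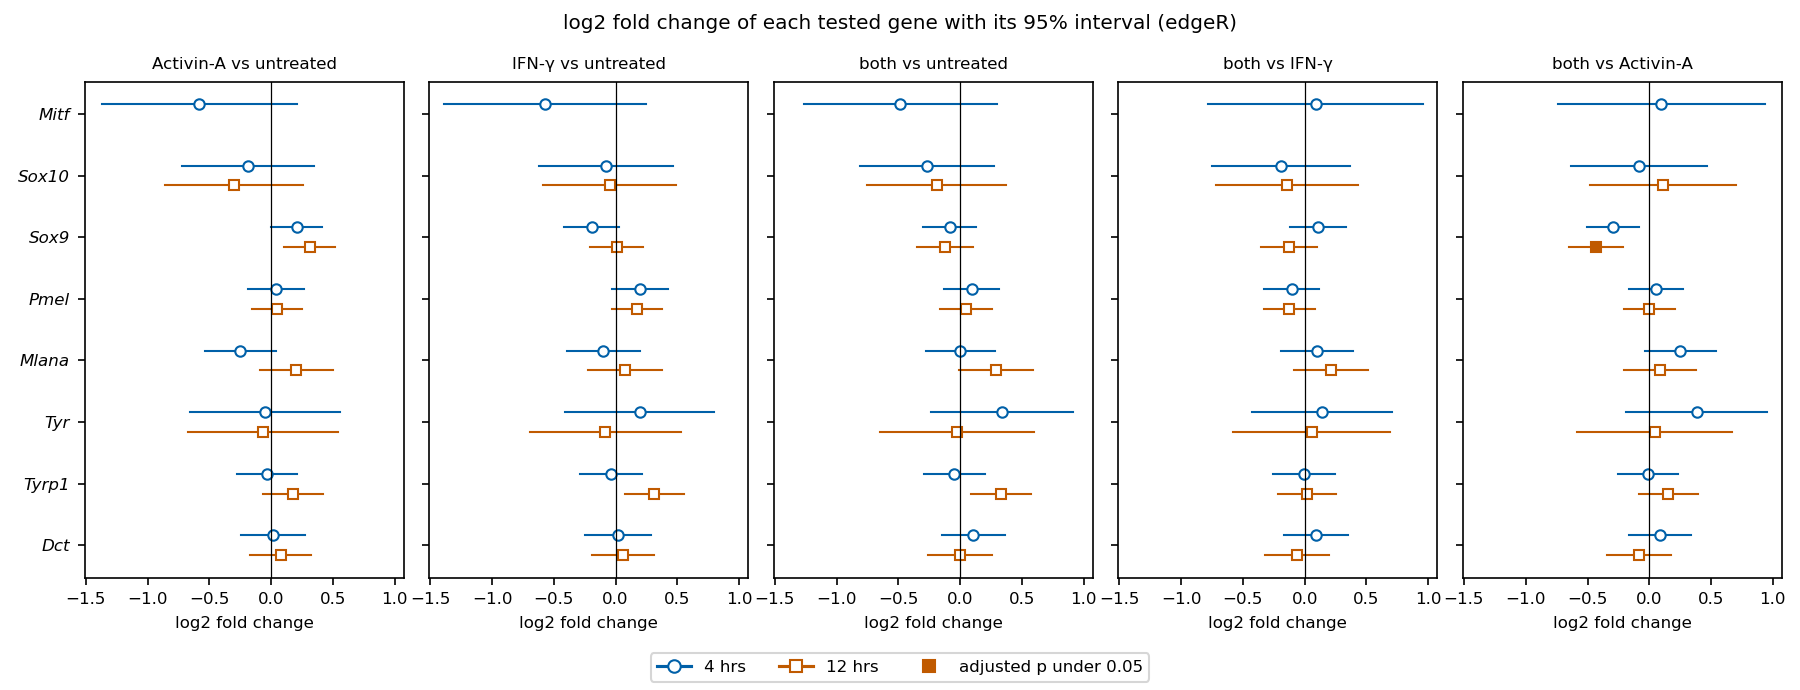
The log2 fold change (x axis) of the 8 genes tested (rows) in the 5 treatment comparisons (panels), at 4 hrs (circles) and 12 hrs (squares), with 95% intervals from edgeR. The single filled symbol is Sox9 with both factors against Activin-A at 12 hrs, at -0.43, and Mitf has no square because it was not tested at 12 hrs.

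Mitf (ENSMUSG00000035158, chr6:97807052-98021349, plus strand) is transcribed from several promoters, and the 3 starts in the RefSeq table (GRCm38.p6) were searched over the 250 bases before each. BRB-seq reads 3′ ends, so that the counts do not separate transcripts by their start. The cyclic AMP response element TGACGTCA, which CREB binds downstream of the melanocortin receptor, was present in the window of the most downstream start, from base -153 to -146, and in no window of the other 2 starts. The motif reads the same on both strands, and 1.55% of 32851 promoters held it in the same window. The window is at chr6:97991533-97991782, plus strand, and the motif is in capitals.
Mitf: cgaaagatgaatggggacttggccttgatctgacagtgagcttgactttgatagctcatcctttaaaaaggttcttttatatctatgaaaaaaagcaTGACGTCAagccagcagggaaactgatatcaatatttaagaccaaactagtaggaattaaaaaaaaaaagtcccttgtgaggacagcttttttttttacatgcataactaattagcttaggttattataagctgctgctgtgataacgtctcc

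At 4 hrs, Mitf had 11, 12, 6 and 13 counts in the untreated wells, 11, 3, 4 and 12 with Activin-A, 8, 6, 2 and 10 with IFN-γ and 12, 3, 7 and 9 with both factors. Each treated group overlapped the untreated wells. In CPM the untreated mean was 10.2 ± 2.76 and the means of the treated groups were 6.56 ± 3.28 after Activin-A, 6.63 ± 3.13 after IFN-γ and 7.50 ± 4.16 after both. The log2 fold changes against untreated cells were -0.58 (SE 0.39, adjusted p = 0.622) with Activin-A, -0.57 (SE 0.41, adjusted p = 0.599) with IFN-γ and -0.48 (SE 0.39, adjusted p = 0.608) with both. The lowest of their 95% intervals reached -1.39 and the highest 0.30, so that a fall to 0.381 times the level and a rise to 1.23 times the level both lay within them. Without replicate 1, the Activin-A value was -0.64. With each well left out in turn these values ranged from -0.90 to -0.36 with Activin-A, the lowest without its replicate 4 and the highest without its replicate 3. They ranged from -0.76 to -0.40 with IFN-γ, and from -0.82 without replicate 1 to -0.18 without replicate 2 with both factors. None passed the threshold.

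At 12 hrs the order of the Mitf means differed: 9.37 ± 3.42 CPM with both factors, 8.23 ± 2.44 with IFN-γ, 6.66 ± 0.777 untreated and 5.65 ± 2.76 with Activin-A. The wells of these groups overlapped. The low count filter removed Mitf from the test of this time, and a fit of all 32 wells, which kept it, gave log2 fold changes against untreated cells of -0.29 (SE 0.45) with Activin-A, 0.24 (SE 0.41) with IFN-γ and 0.47 (SE 0.41) with both. In the same fit both factors against Activin-A gave 0.77 (SE 0.43, 95% interval -0.09 to 1.62, adjusted p = 0.326). In untreated cells 12 hrs against 4 hrs gave -0.61 (SE 0.39, adjusted p = 0.430). The difference between the effects at the 2 times missed the threshold for Mitf with each treatment, with the lowest unadjusted p (0.0803, adjusted p = 0.619) for both factors.

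Sox10 (ENSMUSG00000033006, chr15:79154908-79165240, minus strand) is the neural crest factor that activates Mitf and maintains the glial and pigment lineages. Its group means lay between 12.9 ± 1.43 CPM with Activin-A at 12 hrs and 17.9 ± 8.09 CPM in untreated cells at 4 hrs, and the wells of these outermost groups overlapped. In the untreated group at 4 hrs the wells were at 14.9, 13.5, 13.2 and 29.97 CPM, with replicate 4 far above the others. Activin-A against untreated cells gave a log2 fold change of -0.19 at 4 hrs (SE 0.27, adjusted p = 0.865), which turned to 0.18 without that well and was -0.23 without replicate 1 of Activin-A, and -0.30 at 12 hrs (SE 0.28, adjusted p = 0.757). At 12 hrs the wells with Activin-A were at 12.1, 14.5, 11.4 and 13.6 CPM and the untreated wells at 14.7, 17.9, 12.1 and 18.7 CPM. Over the 14 pairwise comparisons the log2 fold change of Sox10 ranged from -0.30 to 0.11, and none passed the threshold.

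Tyr, Tyrp1 and Dct encode the 3 melanogenic enzymes: tyrosinase, which catalyses the rate-limiting steps of melanin synthesis, tyrosinase-related protein 1, which acts late in eumelanin synthesis, and dopachrome tautomerase. The sequence shown for each is the 250 bases before its start in the RefSeq table (GRCm38.p6), because these promoters are the textbook targets of Mitf. That table held no entry for Pmel, Mlana, Sox10 or Sox9, so that their promoters were not searched. The motif CATGTG, a core bound by Mitf, was searched on both strands and is in capitals, as CACATG where it lies on the opposite strand. Of 32851 promoters 12.3% held it in the same window. The Tyr window (chr7:87493513-87493762, minus strand) held it from base -21 to -16, the Tyrp1 window (chr4:80833963-80834212, plus strand) from -46 to -41, and the Dct window (chr14:118052247-118052496, minus strand) from -150 to -145 and on the opposite strand from -232 to -227. For Tyrp1, the annotation that gave the gene positions places the gene's start at base 80834123, inside this window and before the motif. The Ednrb window and the 3 Mitf windows held no match to these letters. A match describes the letters and does not show binding.
Tyr: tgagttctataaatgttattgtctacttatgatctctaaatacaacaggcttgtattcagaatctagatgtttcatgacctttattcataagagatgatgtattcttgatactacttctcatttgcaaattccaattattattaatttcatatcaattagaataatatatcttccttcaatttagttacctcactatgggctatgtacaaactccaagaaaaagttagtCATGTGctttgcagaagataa
Tyrp1: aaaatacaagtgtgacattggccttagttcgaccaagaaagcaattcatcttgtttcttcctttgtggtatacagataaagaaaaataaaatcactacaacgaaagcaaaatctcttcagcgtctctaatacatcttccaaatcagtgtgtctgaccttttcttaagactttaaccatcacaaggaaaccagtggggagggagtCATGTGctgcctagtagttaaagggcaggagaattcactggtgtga
Dct: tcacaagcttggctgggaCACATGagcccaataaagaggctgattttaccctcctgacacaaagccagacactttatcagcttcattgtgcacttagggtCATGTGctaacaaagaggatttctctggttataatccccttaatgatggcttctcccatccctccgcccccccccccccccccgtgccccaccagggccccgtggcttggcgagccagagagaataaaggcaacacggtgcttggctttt

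Tyrp1 (ENSMUSG00000005994, chr4:80834123-80851719, plus strand) came nearest to the threshold among the pigment genes. At 12 hrs the untreated wells were at 77.3, 65.4, 93.6 and 93.5 CPM, the wells with IFN-γ at 108, 94.1, 91.8 and 110 CPM and the wells with both factors at 94.9, 100, 88.5 and 127 CPM. In each of the IFN-γ and both-factor groups all 4 wells were above the median of the untreated wells, but the lowest of them lay within the untreated range. The means were 82.5 ± 13.7 CPM untreated, 101 ± 9.25 CPM with IFN-γ and 103 ± 16.9 CPM with both factors. The log2 fold change was 0.31 with IFN-γ (SE 0.12, 95% interval 0.08 to 0.55, adjusted p = 0.0917) and 0.33 with both factors (SE 0.12, 95% interval 0.09 to 0.58, adjusted p = 0.0707). For both factors the threshold was passed when replicate 3 or replicate 4 of the untreated wells, or replicate 3 of the wells with both factors, was left out (0.39 to 0.40). At 4 hrs the 4 group means of Tyrp1 lay between 86.2 ± 9.61 and 90.9 ± 9.99 CPM, close together. The difference between the effects at 12 hrs and 4 hrs was 0.39 (SE 0.18, adjusted p = 0.485) for both factors and 0.36 (SE 0.18, adjusted p = 0.655) for IFN-γ. The summed fibroblast markers were 290 ± 18.8 CPM in the untreated wells at 12 hrs, 175 ± 18.7 CPM with IFN-γ and 188 ± 4.62 CPM with both factors, and their part in these values was not tested.

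Tyr (ENSMUSG00000004651, chr7:87424771-87493512, minus strand) had group means between 10.8 ± 1.62 CPM with Activin-A at 4 hrs and 14.4 ± 4.81 CPM with both factors at 4 hrs. Both factors against Activin-A at 4 hrs gave a log2 fold change of 0.38 (SE 0.29, 95% interval -0.19 to 0.96, adjusted p = 0.576), and 0.48 without replicate 1 of Activin-A. The wells with both factors were at 9.49, 11.1, 18.1 and 18.9 CPM and overlapped the Activin-A wells at 12.5, 9.18, 9.69 and 11.8 CPM. At 12 hrs the means of Tyr lay between 11.8 ± 4.76 and 12.9 ± 3.67 CPM.

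Dct (ENSMUSG00000022129, chr14:118012790-118052244, minus strand) varied least. Its coefficient of variation over all 32 wells was 9.82%, below the 11.6% that counting alone gives at its mean count of 74.6. Group means lay between 71.3 ± 2.34 CPM with both factors at 12 hrs and 78.1 ± 6.05 CPM with both factors at 4 hrs. Over 14 comparisons the 95% intervals of Dct lay within folds of 0.764 to 1.29.

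Pmel and Mlana encode melanosome proteins: Pmel forms the amyloid fibrils on which melanin is laid down, and Mlana, known as the T cell antigen MART-1, is a membrane protein that Pmel needs for its processing. Pmel (ENSMUSG00000025359, chr10:128704195-128720238, plus strand) was at 116 ± 11 CPM in untreated cells and 132 ± 14.7 CPM with IFN-γ at 4 hrs, and at 119 ± 14 and 134 ± 11 CPM at 12 hrs. The log2 fold change was 0.20 at 4 hrs (SE 0.11, 95% interval -0.03 to 0.42, adjusted p = 0.474) and 0.17 at 12 hrs (SE 0.10, 95% interval -0.03 to 0.37, adjusted p = 0.387). At 12 hrs the IFN-γ wells (125, 144, 143 and 124 CPM) overlapped the untreated wells (109, 122, 138 and 108 CPM). The annotated Pmel gene overlaps Cdk2 over 837 bases and Dgka over 105 bases on the opposite strand, and the source used here does not say whether reads were counted by strand, so that reads in the overlap cannot be told apart.

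Mlana (ENSMUSG00000024806, chr19:29697824-29708634, plus strand) was the 1 pigment gene with a pairwise comparison in which the wells did not overlap: at 12 hrs the wells with both factors were at 55.3, 57.5, 64.2 and 68.8 CPM, and the untreated wells at 54.9, 43.9, 47.3 and 53.8 CPM. The gap between the groups was small, since the lowest well with both factors was next to the highest untreated well. Wells did not overlap in 4 of the 107 tests of single genes, and the share over all genes was not counted. The log2 fold change was 0.29 (SE 0.15, 95% interval -0.01 to 0.59), and the adjusted p of 0.272 missed the threshold. Mlana with Activin-A against untreated cells gave 0.20 at 12 hrs (SE 0.15, adjusted p = 0.671). The Activin-A wells at 4 hrs were at 48.2, 47.4, 47.6 and 60.8 CPM and the untreated wells at 69.4, 51.0, 62.6 and 59.9 CPM, so that the groups overlapped through replicate 4 of Activin-A. The 4 hrs value was -0.25 (SE 0.14, 95% interval -0.54 to 0.04, adjusted p = 0.547), and -0.21 without replicate 1 of Activin-A. The effect of Activin-A on Mlana at 12 hrs minus that at 4 hrs was 0.46 (SE 0.21, adjusted p = 0.782). In untreated cells the level was 60.7 ± 7.63 CPM at 4 hrs and 50.0 ± 5.24 CPM at 12 hrs (log2 fold change -0.28, SE 0.15, adjusted p = 0.304).

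Summed over Pmel, Mlana, Tyr, Tyrp1 and Dct, the pigment genes lay between 337 ± 29.6 CPM in untreated cells at 12 hrs and 374 ± 8.40 CPM with IFN-γ at 12 hrs. Wells of the 8 groups overlapped widely, from 303 to 418 CPM. The spread of single genes within groups was close to that of counting: the coefficient of variation within groups was 11.3% for Pmel against 8.96% from counting alone, 13.3% against 10.4% for Tyrp1, 13.9% against 13.3% for Mlana, and 10.6% against 9.34% for Sox9. Across the 32 wells the 28 pairs among the 8 tested genes had a median Pearson's r of 0.07 (range -0.27 to 0.49) on log2 CPM (a description, with wells that share a pool and the treatments).

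**Figure D3:**
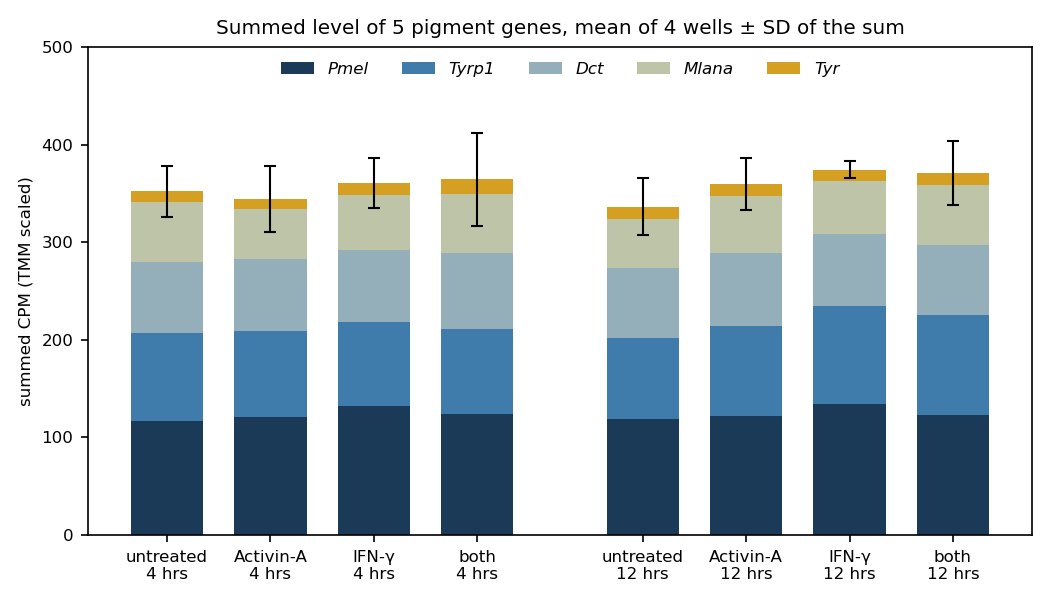
Summed level of Pmel, Tyrp1, Dct, Mlana and Tyr in CPM (y axis, from 0) in the 8 groups (x axis). Stacked bars are means of 4 wells, and the error bar is the SD of the sum over the 4 wells. The sums lie between 337 and 374 CPM, with each gene taking a similar part in every group.

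Ednrb (ENSMUSG00000022122, chr14:103814625-103844402, minus strand) is the endothelin receptor that melanoblasts need to spread through the skin. It was near the floor of detection. At 12 hrs its counts were 4, 3, 0 and 1 in untreated wells, 5, 4, 3 and 3 with Activin-A, 1, 2, 0 and 1 with IFN-γ and 1, 1, 0 and 0 with both factors. The Activin-A wells were above all wells with either IFN-γ treatment, at 15 counts in all against 4 and 2. The lowest Activin-A wells had 3 counts, the highest IFN-γ well had 2, and only 2 of the 4 Activin-A wells were above the floor. The share of all genes without overlap was not counted. At 4 hrs the sums were 17 in untreated cells, 13 for Activin-A, 9 for IFN-γ and 7 for both, and 9 of the untreated counts came from replicate 4. The gene did not pass the filter on low counts. In a fit without that filter both factors against Activin-A at 12 hrs had an unadjusted p of 0.00596 and an adjusted p of 0.0730, and Activin-A against untreated cells 0.174 and 0.727. From the summed counts, the ratio of both factors to Activin-A was 0.153, with an exact binomial counting interval of 0.017 to 0.657 that leaves out the spread between wells, and each well with both factors was under the floor.

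The machinery of the melanosome was described in the same way. Of 36 other melanosome and pigment genes 35 had a row and 25 were tested at each time. Within a time, 1 of 25 was called with both factors against untreated cells at 4 hrs, where 7.29% of all genes tested were called, and 1 of 25 with both against Activin-A at 12 hrs, where 9.62% were. In the other treatment comparisons 0 of 25 were called, beside shares of all genes between 0.810% (both against IFN-γ at 4 hrs) and 9.84% (both against untreated cells at 12 hrs). For both factors against Activin-A at 4 hrs the count was 0 with all wells (6.07% of all genes called) and 1 without replicate 1 of Activin-A. The former was Slc7a11, the cystine transporter that sets pheomelanin synthesis, which fell from 29.6 ± 4.35 to 17.0 ± 5.97 CPM (log2 fold change -0.81, SE 0.22, adjusted p = 0.00952), a call that DESeq2 did not make. The latter was Bloc1s6, a subunit of the BLOC-1 complex of melanosome biogenesis, which was 133 ± 14.4 CPM against 93.7 ± 10.9 CPM (log2 fold change 0.50, SE 0.11, adjusted p = 0.000314). The list's median log2 fold change against untreated cells at 12 hrs was 0.18 with IFN-γ and 0.19 with both factors, where the median over all genes was -0.01 in each. At 4 hrs the same medians of the list were -0.01 with IFN-γ and -0.02 with both factors. From 4 to 12 hrs the list's median was -0.14 when untreated, -0.03 under Activin-A, 0.10 under IFN-γ and 0.11 under both, where that of all genes tested lay between -0.0019 and 0.0090. Between the times 1 of 27 was called in untreated cells (4.90% of all genes called) and 1 with IFN-γ (8.41%), in both cases Snapin, higher at 12 hrs, 1 with both factors (7.10%), Bloc1s6, also higher, and 0 with Activin-A (6.97%). Without replicate 1 of Activin-A at 4 hrs the count with Activin-A was 1, a gene lower at 12 hrs.

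Of 28 genes that feed into Mitf or resemble it 24 had a row and 13 were tested at each time. Usf1, a factor that binds the same E-box letters as Mitf and acts in pigmentation, rose with IFN-γ from 20.6 ± 5.30 to 55.1 ± 11.5 CPM at 4 hrs (log2 fold change 1.38, SE 0.20, adjusted p = 1.6e-07) and from 26.5 ± 7.17 to 57.4 ± 7.13 CPM at 12 hrs (1.06, SE 0.18, adjusted p = 4.86e-07). Kitl, the ligand of the receptor Kit, rose with IFN-γ from 29.9 ± 3.88 to 50.4 ± 11.1 CPM at 12 hrs (0.78, SE 0.18, adjusted p = 0.000544), while Kit itself had no row. Against untreated cells, 2 of 13 were higher with IFN-γ at each time and 0 lower, beside 5.06% of all genes called in either direction at 4 hrs and 9.25% at 12 hrs. With both factors 2 were higher at 4 hrs (7.29% of all genes called) and 1 at 12 hrs (9.84%). With Activin-A 0 were called at 4 hrs (1.64%), also without replicate 1, and 1 at 12 hrs (2.41%), Bhlhe40 (0.74, SE 0.22, adjusted p = 0.0460), a repressor of Mitf under hypoxia. With IFN-γ the list's median log2 fold change was 0.04 at 4 hrs and 0.17 at 12 hrs, where those of all genes tested were -0.0066 and -0.0098. Pax3, which activates Mitf with Sox10, had 0 to 10 counts.

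Among 42 further neural crest and Schwann cell precursor genes 35 had a row, with 25 tested at 4 hrs and 23 at 12 hrs. Against untreated cells at 4 hrs, 1 was higher and 1 lower with Activin-A (1.64% of all genes called), 1 higher and 1 lower with IFN-γ (5.06%), and 2 higher and 3 lower with both factors (7.29%). At 12 hrs 2 were higher and 1 lower with Activin-A (2.41%), 2 higher and 2 lower with IFN-γ (9.25%), and 2 higher and 2 lower with both (9.84%). Against Activin-A alone, both factors gave 2 higher and 2 lower at 4 hrs (6.07%), and 3 higher and 1 lower at 12 hrs (9.62%). The summed fibroblast markers of these groups did not overlap at either time, and their part was not tested. Without replicate 1 of Activin-A the counts at 4 hrs that use it were the same. The 1 lower gene was Sox4, another Sox factor, which at 12 hrs was 132 ± 14.1 CPM with Activin-A, 92.6 ± 7.52 CPM untreated and 64.7 ± 16.4 CPM with both factors, with a log2 fold change of 0.49 (SE 0.11, adjusted p = 0.00228) for Activin-A against untreated cells and -1.02 (SE 0.13, adjusted p = 5.53e-11) for both factors against Activin-A. Cdh6, a cadherin of migrating crest cells, rose with Activin-A from 34.6 ± 2.32 to 74.7 ± 16.8 CPM at 4 hrs (1.13, SE 0.16, adjusted p = 1.59e-06), and by 1.24 without replicate 1 of Activin-A. Twist1, a factor of mesenchymal transition, was lower with Activin-A at 4 hrs (-0.34, SE 0.08, adjusted p = 0.0137, and -0.37 without that well) and higher with IFN-γ at 12 hrs (0.54, SE 0.07, adjusted p = 2.76e-09). From 4 to 12 hrs in untreated cells 8 of 26 tested fell, among them Sox2 (-0.35, SE 0.08, adjusted p = 0.00214), and 1 rose (Snai2), beside 4.90% of all genes called in either direction. With Activin-A 2 were higher and 8 lower (6.97% of all genes called), also without its replicate 1 at 4 hrs, with IFN-γ 0 were higher and 9 lower (8.41%), and with both factors 1 was higher and 6 lower (7.10%). The list's median log2 fold change between the times in untreated cells was -0.24, where that of all genes tested was -0.0019. The summed fibroblast markers did not overlap between the times under any treatment, and their part was not tested.

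Of 25 genes that literature links to low MITF in melanoma, all 25 had a row and 21 were tested. With Activin-A against untreated cells 5 rose at 4 hrs, where 1.64% of all genes tested were called, and 5 at 12 hrs, where 2.41% were, at each time among them Inhba, which encodes the subunit of Activin-A, Ccn1, Ccn2 and Thbs1. At 12 hrs 2 fell, Fosl1 (-0.27, SE 0.07, adjusted p = 0.0194) and Tgfbi (-0.35, SE 0.09, adjusted p = 0.0206). With IFN-γ 1 was higher at 4 hrs (5.06% of all genes called), and 2 higher and 2 lower at 12 hrs (9.25%). With both factors 6 were higher at 4 hrs (7.29%), and 6 higher and 2 lower at 12 hrs (9.84%). With Activin-A the list's median log2 fold change was 0.12 at 4 hrs (all genes tested -0.0017), 0.07 without replicate 1, which left the count at 5, and 0.07 at 12 hrs (all genes tested -0.0031). Axl, the receptor that marks the low MITF state, was higher with both factors at 12 hrs (0.18, SE 0.05, adjusted p = 0.0138). For Mitf itself the same comparison gave 0.47 (SE 0.41, edgeR adjusted p = 0.607) in the fit of all 32 wells, so that a lower Mitf was not seen with it.

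**Figure D4:**
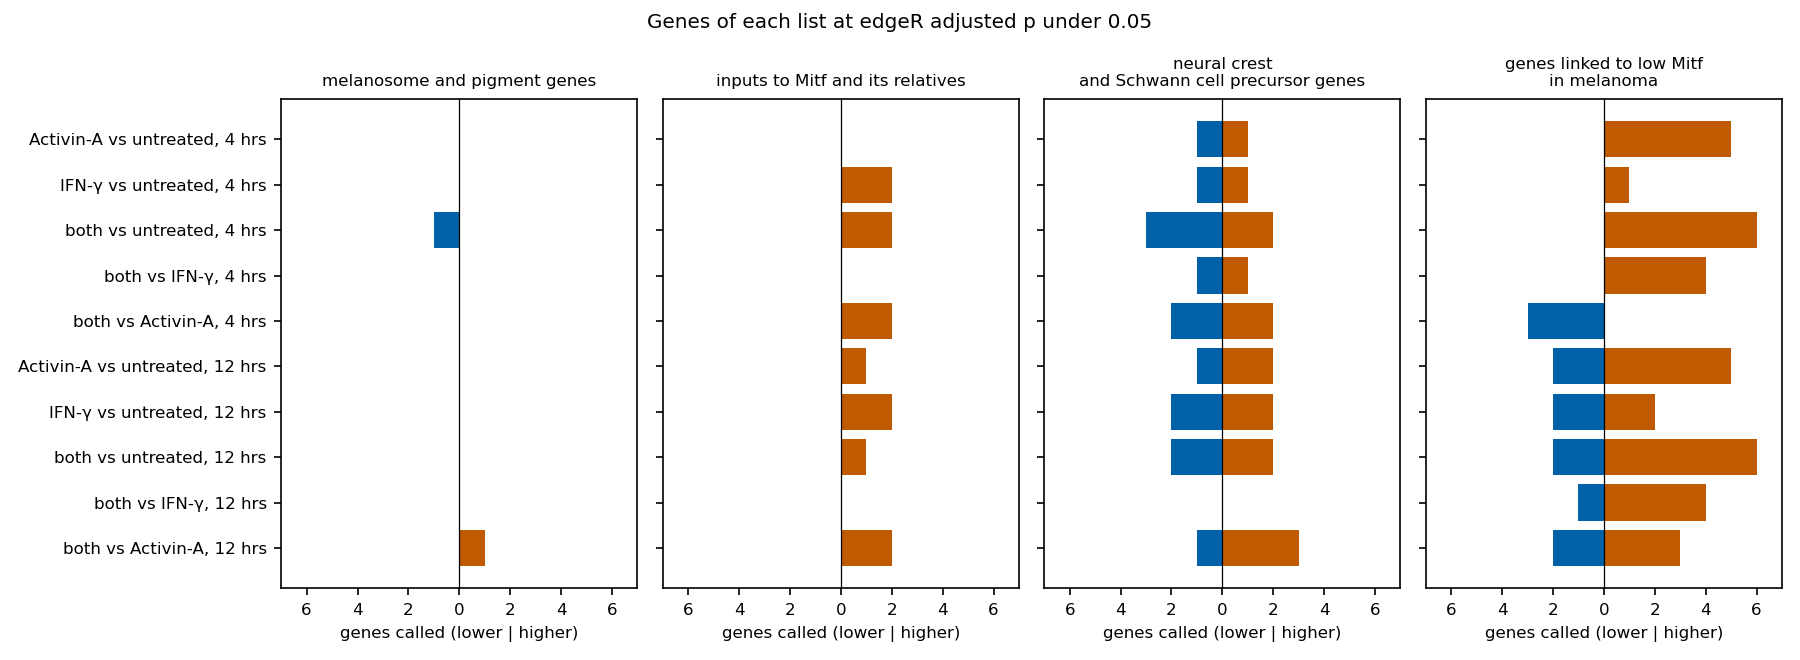
Number of genes (x axis, lower to the left in blue and higher to the right in orange) called by edgeR at an adjusted p under 0.05 in each of 4 gene lists (panels) for the 10 treatment comparisons (rows). The melanosome list has 1 call in each of 2 comparisons and 0 in the other 8. The list linked to low Mitf has 5 higher genes with Activin-A at each time and 2 lower at 12 hrs, and 3 lower for both factors against Activin-A at 4 hrs (2 without replicate 1 of Activin-A).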

How the data were processed

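BRB-seq libraries of 32 wells of YUMM3.3 cells were analysed. The authors deposited raw read counts per gene, as whole numbers without normalization. Per the submitters' processing notes, reads were processed with STAR 2.7.10b and featureCounts on GRCm39, and DESeq2 1.36.0 was used. Strand handling and collapse of molecular identifiers are not given in the sources used here, so counts may include duplicates. Identifiers were matched to symbols in GENCODE M21 (GRCm38), which matched 12437 of 12451 genes and gave the positions. Promoter sequences are from RefSeq (GRCm38.p6).

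Counts were filtered with filterByExpr, scaled by TMM and tested with edgeR 4.0.16 (glmQLFit and glmQLFTest, R 4.3.3) over the 16 wells of a time, or all 32 for contrasts between times, with Benjamini-Hochberg adjustment and a threshold of 0.05. log2 CPM used a prior count of 2. The code was tested on simulated data. Alternatives were DESeq2 1.42.0, RLE scaling, no filter, at least 10 counts per well, a replicate block, only 8 wells or all 32 in a fit, a threshold of 0.01, and each well left out. All 10 genes were named. From 4 lists and the cell type markers, genes called in a comparison could be named, at most 4 per list and comparison, and fewer are printed. The genes and lists were chosen with earlier results of these data known. Python 3.11.15 read sequences and drew plots.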

Additional observations from a re-analysis of the deposited data

Results flagged for a closer look

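In 72 groups of 4 wells (9 genes in 8 groups), 5 had a well whose gap to its nearest neighbour took more of the group's range than Dixon's 95% critical value allows, where chance gives about 1 in 20 groups. Replicate 3 of untreated cells at 12 hrs was at 5.50 CPM for Mitf, with the others from 6.96 to 7.17 CPM, on 5 to 9 counts per well. For Sox10, replicate 4 of untreated cells at 4 hrs was at 29.97 CPM and the others from 13.2 to 14.9 CPM. The same well held 9 of the 17 Ednrb counts of its group. Mlana was at 60.8 CPM in replicate 4 of Activin-A at 4 hrs (others 47.4 to 48.2 CPM) and at 47.8 CPM in replicate 2 of both factors at 4 hrs (others 64.0 to 66.7 CPM). Dct was at 88.4 CPM in replicate 1 of Activin-A at 12 hrs, with the others from 69.4 to 70.6 CPM.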

How the results depend on the processing

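The number of the 9 genes called was the same as in the main analysis under DESeq2, RLE scaling, no filter, a stricter filter, a threshold of 0.01 and the other sets of wells. With each well left out in turn it ranged from 0 to 1 for both factors against untreated cells at 12 hrs and from 0 to 1 for Activin-A against untreated cells at 12 hrs, where the gene gained was Tyrp1 and Sox9, respectively. The direction of Sox9 with IFN-γ at 12 hrs turned with DESeq2 (-0.00093) and, over fits with 1 well left out that ranged from -0.048 to 0.086, without replicate 1 or 3 of the untreated wells or replicate 3 or 4 of the IFN-γ wells. The log2 fold change of Sox10 with Activin-A at 4 hrs ranged from -0.30 to 0.18 with 1 well left out, and its direction turned without replicate 4 of the untreated wells. The cause was not tested. All group levels of the 9 genes moved by less than 1 SD. Among the other genes named with a fold change, calls were lost with DESeq2 for Slc7a11, Bhlhe40, Fosl1 and Tgfbi. When single wells were left out they were lost in some fits for the same 4, for Twist1 with Activin-A at 4 hrs (without untreated replicate 3 or Activin-A replicate 2) and for Axl with both factors at 12 hrs (without untreated replicate 1 or both-factor replicate 2). A threshold of 0.01 dropped Bhlhe40, Fosl1, Tgfbi, Twist1 with Activin-A and Axl, and the fit of all 32 wells dropped Bhlhe40. The calls of Snapin in untreated cells and of Bloc1s6 between the times were lost with DESeq2, at 0.01 and in some fits with 1 well left out.

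Wells with the same replicate number did not deviate together (mean r across genes -0.00023 in 112 pairs, and 8.1e-05 in other pairs), so the numbers do not pair the wells. With the replicate block the count for both factors against Activin-A at 12 hrs stayed at 1, with Sox9 at -0.44, and no count of the 9 genes changed. Depth limits Mitf, Tyr, Sox10 and Ednrb most: at a mean count of 7.59, counting alone gives Mitf a coefficient of variation of 36.3%.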
